A study of Saccharomyces cerevisiae with 8 samples.

Results

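The 200 nucleotides C2600 to A2799 of the 25S ribosomal RNA (rRNA) of the yeast *Saccharomyces cerevisiae* are described here, taken by position alone from the 5475 rRNA nucleotides with a measured mutation rate. They lie in domain V and hold, by textbook knowledge, the P loop, the helices under the central protuberance, and part of the exit (E) site pocket where cycloheximide binds. The window has 56 adenosines, 39 cytidines, 57 guanosines and 48 uridines. Purified 80S ribosomes were pre-incubated with a drug in vitro, treated for 8 min with 90 mM dimethyl sulfate (DMS), and sequenced as 8 libraries, 1 per condition. The drug agelastatin A (AglA), a sponge alkaloid that inhibits translation, was given at 0.5 or 1.0 mM. Cycloheximide (CHX), an inhibitor of translation elongation, was given at 10, 50 or 1000 µM. The libraries without drug had DMS with the solvent dimethyl sulfoxide (DMSO), DMS with no addition, and no DMS. The labels give neither the yeast strain nor the solvent of CHX, and do not state whether each library had its own ribosome preparation. Each mutation rate gives, for its nucleotide, the reads that mismatch as a share of all reads. Read depth is unknown, so rates have no counting interval, and with 1 library per condition no difference has a replicate check.

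DMS puts a methyl group on adenosine and cytidine at the edge used for base pairing, which leaves a mismatch when a read-through reverse transcriptase copies the base. A base inside a helix, under a protein or under a bound drug is covered and stays unmethylated. The P loop pairs with the CCA end of the peptidyl tRNA. The helices of the central protuberance carry 5S rRNA and its proteins. The E site receives the CCA end of the deacylated tRNA before it leaves, and CHX is known to occupy that pocket.

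The window corresponds to chrXII:452383-452582 on the minus strand of build sacCer3 (R64). There it lies in the gene RDN25-1, annotated from 451786 to 455181 as an rRNA gene, so that the window is transcribed but not coding. The rDNA is repeated, and the deposited rates do not separate its copies. The window is printed whole, 5′ to 3′ as the rRNA runs and with T for U as in the deposited table, because the spacing of its reactive bases is the first result. Capitals mark the 12 adenosines and cytidines that reached a mean rate of 0.5% over the 7 libraries with DMS.
25S C2600 to A2799: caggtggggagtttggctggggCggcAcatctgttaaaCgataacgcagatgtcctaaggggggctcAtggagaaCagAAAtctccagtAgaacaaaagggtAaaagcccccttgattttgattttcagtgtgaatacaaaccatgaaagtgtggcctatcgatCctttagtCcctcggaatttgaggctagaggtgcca

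Reactive adenosines were few in this window, and the median rate of its reactive bases was high. Of its 95 adenosines and cytidines, 12 passed the 0.5% bound (12.6%, against 20.3% of the 2529 in all rRNA), namely 7 adenosines and 5 cytidines. The same 12 were the ones whose rate was at least 10-fold higher with DMS, with DMSO as well as with no addition, than without DMS. By that rule 7 of 56 adenosines responded (12.5%, against 29.7% of all adenosines) and 5 of 39 cytidines (12.8%, against 10.5% of all cytidines). The median rate of the 12 was 6.86% with DMSO and 7.25% with no addition, against 0.0846% without DMS. The 514 nucleotides that passed the bound in all rRNA, which are called tested below, had 1.66% and 1.74% with DMS against 0.0544% without. With DMSO, A2679 (1.14%), A2702 (1.46%) and C2772 (1.62%) lay under that 1.66%. The neighbouring stretches differed from each other, with 26 of 89 adenosines and cytidines past the bound in the 200 nucleotides before it and 12 of 89 in the 200 after it. These shares were compared without a test.

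**Figure D1:**
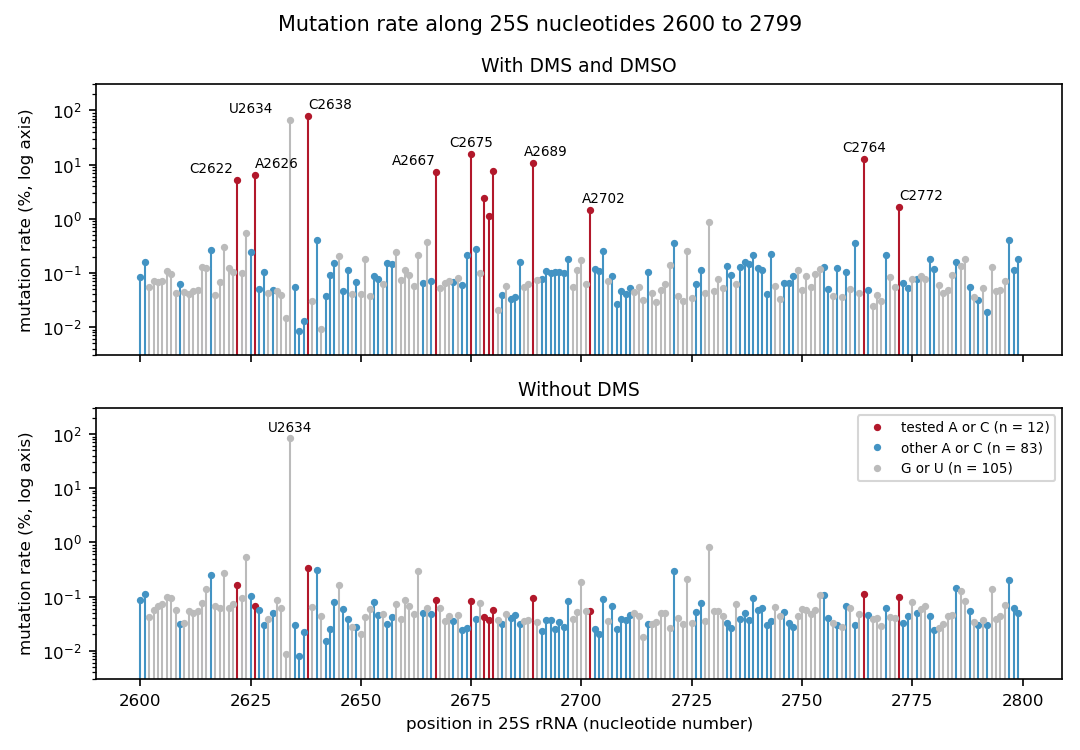
Mutation rate in percent (log axis) of each of the 200 nucleotides against its position in 25S rRNA, with DMS and DMSO (top) and without DMS (bottom). Red points are the 12 tested adenosines and cytidines, blue the other 83, grey the 105 guanosines and uridines. With DMS the red points stand at 1.14% to 78.7%. Without DMS only U2634 stands above 1%.

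The other 83 adenosines and cytidines stayed near the background. Their median rate was 0.101% with DMSO and 0.0940% with no addition, against 0.0394% without DMS. In both libraries, 6 of them (A2674, A2676, A2686, A2704, A2743 and A2762) were at least 5-fold but not in both 10-fold higher with DMS. Another 32 were at least 2-fold higher in both but not 5-fold in both, and 45 were under 2-fold in at least 1 of the libraries. Just under the bound, C2797 had 0.300% to 0.470% in the DMS libraries against 0.203% without DMS, and A2721 had 0.303% to 0.366% against 0.296%. None of the 105 guanosines and uridines was 10-fold higher with DMS (0%, against 1.09% of all guanosines and uridines). U2665 came nearest, at 5.82-fold in the lower of both libraries.

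The reactive bases were unevenly spaced. Of the adenosines and cytidines in successive stretches of 50 nucleotides, 3 of 21 were tested in the first, 6 of 27 in the second, 1 of 26 in the third and 2 of 21 in the last. Between A2702 and C2764 lay 61 nucleotides, 30 of them adenosine or cytidine, with no tested base, and this was the second longest such gap of 291 in 25S rRNA, where the median gap was 6. Rates of those 30 in the DMS libraries ranged over 0.0248% to 0.528%, and the highest was A2762 with CHX. At the ends of the window, the 3 nucleotides just inside each end had 0.0548% to 0.470% in the DMS libraries and the 3 just outside 0.0228% to 0.189%, so no reactive base was split off there.

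C2638 had the highest rate with DMS of all tested nucleotides that were under 5% without DMS. It had 78.4% with 0.5 mM and 76.9% with 1.0 mM AglA. It had 75.1%, 78.5% and 75.6% with CHX (10, 50 and 1000 µM), against 78.7% with DMSO, 77.7% with no addition and 0.333% without DMS. The DMSO rate was 236 times that without DMS. Of the 514 tested nucleotides in the DMSO library it ranked 2, and of the 133 cytidines it ranked 1. The next nucleotides by rate were A1139 of 18S rRNA with 64.5% and A692 of 25S with 51.7%. All 7 DMS libraries lay within a narrow band at C2638, and no drug moved it past either library without drug by more than 0.33 on the log2 scale.

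U2634, 4 nucleotides upstream of C2638, read differently with DMS although it is a uridine. It is known as a 3-methyluridine, a base that yeast methylates on its base-pairing edge and that gives mismatches without any reagent. Its rate was 65.2% and 63.5% with AglA and 65.9%, 66.7% and 65.9% with CHX, 65.0% with DMSO and 66.1% with no addition, against 83.5% without DMS. Relative to the library without DMS it dropped by 18.5 percentage points with DMSO, and it dropped by 17.4 with no addition. All 7 DMS libraries lay below the library without DMS. Of the 6 nucleotides in all rRNA with at least 10% mismatches without DMS, U2634 was the 1 that moved by so much. Between DMSO and no DMS the largest change among the other 5 was at A2142 of 25S, with 54.5% with DMSO against 56.1% without DMS. U2843, the other 3-methyluridine of 25S, had 82.6% with DMSO and 82.9% with no addition against 82.9% without DMS. The 3 adenosines between U2634 and C2638 had low rates, with 0.00585% to 0.0552% at A2635 to A2637 in the DMS libraries and 0.00795% to 0.0295% without DMS. How mismatches at both bases are shared among reads is not held in per-nucleotide rates, and its part in the change at U2634 was not tested.

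**Figure D2:**
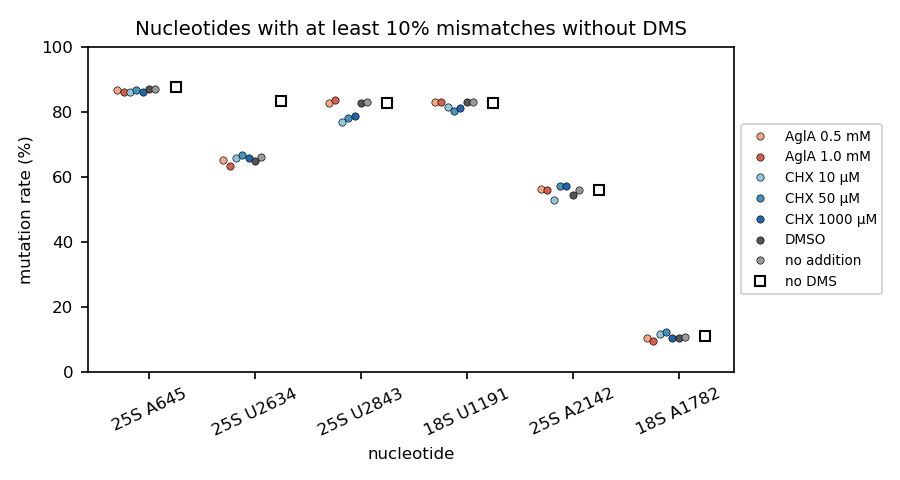
Mutation rate in percent of the 6 rRNA nucleotides with at least 10% mismatches without DMS, in 7 DMS libraries (circles) and the library without DMS (squares). U2634 lies at 63.5% to 66.7% with DMS and at 83.5% without. At the other 5 nucleotides the square lies level with or close to the circles, apart from U2843 with CHX (77.0% to 78.7%).

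Both bases lie in the loop of a hairpin that can be read from the letters alone. A search made after the rates were seen looked in 25S for a pair of arms of at least 5 nucleotides, complementary by A-U and G-C pairs, around a loop of 3 to 15 nucleotides. It found 3 in the window. The first has arms of 7 around a loop of 13, and the second, arms of 6 around a loop of 7. The hairpins are shown because their loops hold 5 of the 12 reactive bases. Capitals mark U2634 (written T) and C2638 in the first (chrXII:452530-452556, minus strand), and C2675 and A2678 to A2680 in the second (chrXII:452496-452514, minus strand).
25S A2626 to U2652: acatctgtTaaaCgataacgcagatgt
25S U2668 to A2686: tggagaaCagAAAtctcca

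In the loop of the second hairpin 4 of 6 adenosines and cytidines were tested, and in its arms 0 of 6. C2675 had 14.0% and 13.7% with AglA and 12.5%, 13.1% and 12.2% with CHX, against 15.5% with DMSO, 13.5% with no addition and 0.0820% without DMS. A2680, the last base of the loop, had 7.95% and 7.74% with AglA and 6.31%, 7.52% and 6.81% with CHX, against 7.64% with DMSO, 8.00% with no addition and 0.0561% without DMS. Among the 3 adjacent adenosines the middle one was lowest in every DMS library. A2678 had 2.35% to 2.64% with a drug against 2.39% with DMSO and 2.42% with no addition, while A2679 had 0.899% to 1.26% with a drug against 1.14% and 1.16%. The remaining adenosines of the loop, A2674 and A2676, had 0.166% to 0.336% in the DMS libraries, above their 0.0268% and 0.0386% without DMS. The third hairpin, with arms of 5, held A2702 in its loop and was not paired in the fold predicted below.

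In the first hairpin the reactive bases were C2638 in the loop and A2626 at the outer end of an arm. A2626 had 5.65% and 5.33% with AglA and 5.20%, 5.86% and 5.42% with CHX, against 6.33% with DMSO, 7.41% with no addition and 0.0677% without DMS. Its rates with a drug all lay below both libraries without drug. On the log2 scale, with 0.1 percentage points added to each rate and the library's median over the 514 tested nucleotides taken off, A2626 relative to DMSO was at -0.09 and -0.19 with AglA and at 0.04, 0.01 and -0.02 with CHX, and DMSO relative to no addition was at -0.16. Over the window's 3 hairpins 6 of 20 loop adenosines and cytidines were tested (30%) and 1 of 18 in the arms (5.56%). In the 36 other hairpins of this kind in 25S rRNA the values were 39 of 144 (27.1%) and 31 of 200 (15.5%). A complementary pair of arms is a property of the letters and does not show that the helix forms.

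A predicted fold was set beside the rates. In the minimum free energy fold of the 200 nucleotides alone, 9 of the 12 DMS-responsive bases were unpaired (75%, exact binomial 95% interval 42.8% to 94.5%), against 39 of the other 83 adenosines and cytidines (47%, 35.9% to 58.3%). The intervals overlap, and cover counting error only if every nucleotide is taken as independent. Neighbouring bases share loops and helices of the same predicted fold, so the intervals cannot serve as a test. The difference between the shares was not tested. The 3 predicted as paired were C2622, A2626 and C2764. The fold leaves out the rest of the rRNA, the proteins and pairs across helices.

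The P loop held 1 reactive base, C2622. Its guanosines include G2619, which carries a 2′-O-methyl group, and G2620, and both are known to pair with the tRNA. The stretch is shown with G2619, G2620 and C2622 in capitals (chrXII:452551-452571, minus strand).
25S U2611 to U2631: tttggctgGGgCggcacatct

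C2622 had 4.33% and 4.39% with AglA and 3.84%, 3.77% and 3.68% with CHX, against 5.20% with DMSO, 5.03% with no addition and 0.164% without DMS. All 5 drug libraries lay below both libraries without drug, and those with CHX lay lowest. The guanosines G2618 to G2621 had 0.0597% to 0.335% in the DMS libraries and 0.0611% to 0.268% without DMS. On the same centred log2 scale, C2622 was at -0.20 and -0.19 with AglA and at -0.11, -0.33 and -0.29 with CHX relative to DMSO. The log2 ratio of DMSO to no addition had a standard deviation of 0.19 over all tested nucleotides and 0.11 over the 12 of the window. C2622 itself was 0.11 higher with DMSO than with no addition. The ratios to DMSO at 50 and 1000 µM CHX were larger in size than both standard deviations. With 0.5 mM AglA the ratio (-0.196) barely passed the larger one (0.194). Relative to no addition, C2622 was at -0.09 and -0.08 with AglA and at -0.002, -0.22 and -0.18 with CHX. With 1 library per condition, whether these differences exceed those between libraries was not tested.

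The remaining reactive bases of the middle of the window were adenosines. A2667 had 6.61% and 6.57% with AglA and 5.70%, 6.33% and 6.04% with CHX, against 7.39% with DMSO, 7.10% with no addition and 0.0873% without DMS. A2689 had 9.39% and 9.33% with AglA and 8.95%, 9.60% and 8.81% with CHX, against 10.7% with DMSO, 11.1% with no addition and 0.0957% without DMS. At both, every drug library lay below the libraries without drug before centring. Whole libraries were lower too. Relative to DMSO, the log2 median over all tested nucleotides was at -0.06 and -0.05 with AglA and at -0.32, -0.12 and -0.20 along the CHX doses. After centring, A2667 was at -0.12 to 0.07 against both libraries without drug in every drug library, and A2689 at -0.15 to 0.06. A2702 had 1.71% and 1.75% with AglA and 1.07%, 1.65% and 1.64% with CHX, against 1.46% with DMSO, 1.63% with no addition and 0.0552% without DMS, and its 10 µM CHX library lay lowest.

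**Figure D3:**
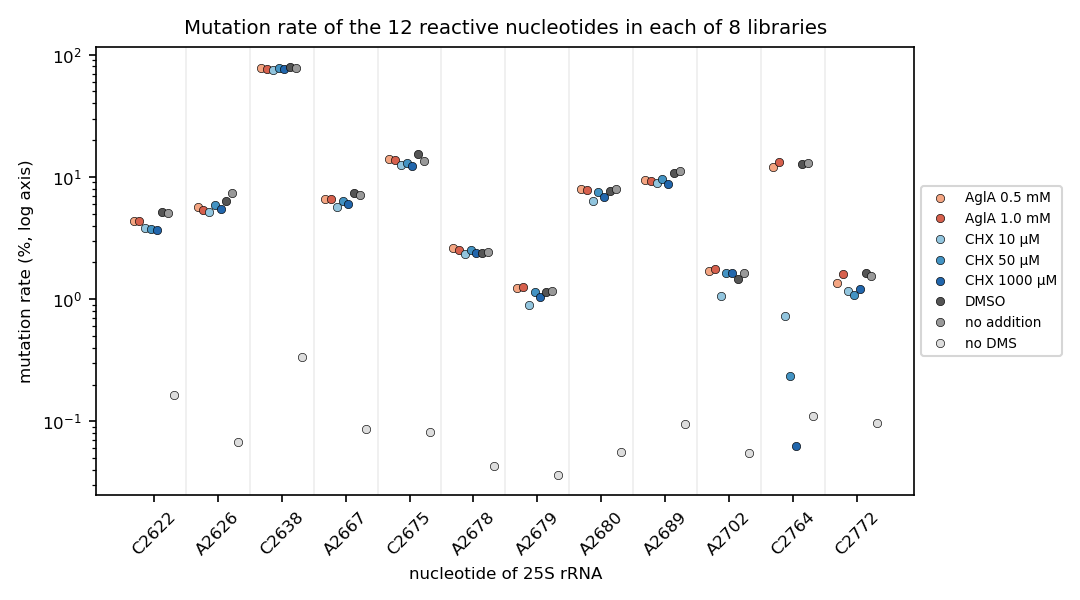
Mutation rate in percent (log axis) of the 12 reactive nucleotides, 1 point per library, with AglA in orange, CHX in blue, DMSO and no addition in dark grey and no DMS in light grey. At C2764 the 3 CHX points fall away from the others (0.724%, 0.234% and 0.0633%). At the other 11 nucleotides the 7 DMS libraries lie close together, far above the library without DMS.

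With CHX, C2764 lost nearly all of its reactivity, at the lowest dose already. It lies in the E site pocket and is shown in capitals within its flanks (chrXII:452403-452433, minus strand, C2764 itself at 452418).
25S G2749 to A2779: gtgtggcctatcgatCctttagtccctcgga

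Along the CHX series the rate of C2764 was 12.9% with no addition, 12.7% with DMSO, 0.724% at 10 µM, 0.234% at 50 µM and 0.0633% at 1000 µM. With AglA it was 12.0% and 13.3%, and without DMS 0.112%. As a share of the DMSO rate, both less the rate without DMS, 4.85% was kept at 10 µM, 0.967% at 50 µM and -0.38% at 1000 µM, where the rate was below that without DMS. The rate at 10 µM was 3.10 times that at 50 µM. In each CHX library 1 of the 12 tested nucleotides of the window, C2764, was lower by at least 2-fold than DMSO and than no addition, the call used here in place of a test (0.195%, or 1 of 514, of all tested nucleotides), and 0 were higher (0% of 514). The 1 of 514 is C2764 itself. The log2 ratios to DMSO were -3.64, -5.14 and -6.10. The libraries without drug differed by 0.04 at C2764.

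**Figure D4:**
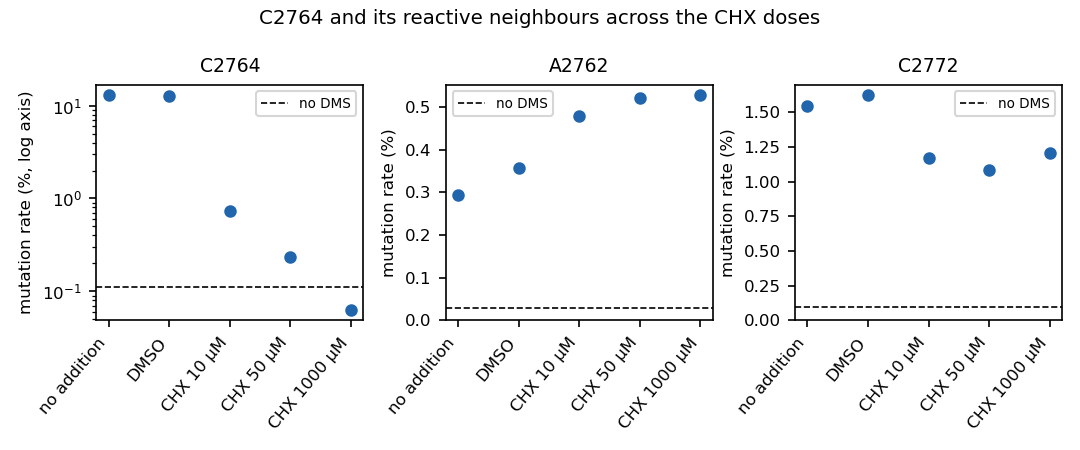
Mutation rate in percent of C2764 (log axis), A2762 and C2772 (linear axes from 0) in the libraries with no addition, DMSO, and 10, 50 and 1000 µM CHX, 1 point per library, with the rate without DMS as a dashed line. C2764 drops to 0.0633%, A2762 lies at 0.479% to 0.528% with CHX, and C2772 at 1.09% to 1.20% with CHX.

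A2762, 2 nucleotides upstream of C2764, was higher with CHX. Along the CHX series it had 0.293% with no addition, 0.357% with DMSO, 0.479% at 10 µM, 0.521% at 50 µM and 0.528% at 1000 µM. With AglA it had 0.341% and 0.373%, and without DMS 0.0301%. The 3 CHX libraries lay above all 4 other DMS libraries. Its mean over the DMS libraries was under 0.5%, so it was not among the tested nucleotides and was described after its values were seen. The centred log2 ratios to DMSO were 0.66, 0.57 and 0.66, and those to no addition 0.94, 0.84 and 0.94, against 0.28 between DMSO and no addition. Part of each ratio to DMSO came from centring. It takes off library medians of -0.32, -0.12 and -0.20 relative to DMSO from every base, unreactive ones too. G2619, at 0.300% with 10 µM CHX and 0.299% with DMSO, had a centred ratio of 0.32. It stayed under the 2-fold bound. A bound of 0.5 on the log2 scale, against DMSO and no addition and at every CHX dose, was set with the values in view. By it A2762 was the 1 of 2015 untested adenosines and cytidines in all rRNA that was higher (0.0496%), and 0 of 514 tested ones were. It missed the bound against DMSO without centring (0.34, 0.44 and 0.46) and with 1 percentage point added to the rates in place of 0.1 (0.33, 0.25 and 0.30). By that bound 2 of the 514 tested nucleotides were lower with CHX (0.389%), C2764 and C959 of 25S. Whether the changes at C2764 and A2762 occur in the same reads was not tested.

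C2772, 8 nucleotides downstream of C2764, was the nearest tested base. Along the CHX series it had 1.54% with no addition, 1.62% with DMSO, 1.17% at 10 µM, 1.09% at 50 µM and 1.20% at 1000 µM. With AglA it had 1.34% and 1.60%, and without DMS 0.0966%. The CHX libraries lay below the other 4 DMS libraries before centring, but after it the log2 ratios ran between -0.42 and 0.00 and had no order with dose. The other 8 adenosines and cytidines within 10 nucleotides of C2764 (C2755, C2756, A2758, C2760, C2765, A2769, C2773 and C2774) had 0.0405% to 0.276% in the DMS libraries and 0.0293% to 0.108% without DMS. The highest of them, A2769, had 0.236%, 0.257% and 0.276% with CHX (10, 50 and 1000 µM), against 0.210% with DMSO, 0.261% with no addition and 0.0608% without DMS, and so was not lower than DMSO at any dose.

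The rest of the E site pocket and the natural modifications gave little signal to compare. U2763, G2793 and G2794, named with C2764 as contacts of CHX, are not bases that DMS methylates on the pairing edge, and had 0.0352% to 0.191% in the DMS libraries and 0.0378% to 0.138% without DMS. Of the 8 nucleotides listed as naturally modified, 0 were tested. All but A2640 are guanosines or uridines, which the rule leaves out whatever their rate. U2634 was the 1 of the 8 with a rate above 2%. U2729, known as a 2′-O-methyluridine, had 0.809% to 1.01% in the DMS libraries and 0.834% without DMS, and A2640, a 2′-O-methyladenosine 2 nucleotides from C2638, had 0.312% to 0.445% and 0.304%. The other modified bases, G2619, G2791, G2793 and U2724 with 2′-O-methyl groups and the pseudouridine U2735, had 0.0403% to 0.335% with DMS. G2624, which is not on the list, had 0.421% to 0.678% in the DMS libraries and 0.530% without DMS. At U2729 and G2624 the rate without DMS lay within the range of the DMS libraries, and at A2640 just below it.

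No reactive base of the window passed the 2-fold call with AglA at either dose (0 of 12, where 1 of 514, 0.195%, was lower at each dose and 0% higher). Without C2764, the log2 ratios to DMSO of the other 11 spanned -0.20 to 0.28 at 0.5 mM and -0.19 to 0.30 at 1.0 mM, with medians of -0.08 and 0.02, and the median of all tested nucleotides was 0. After centring, those lower than both libraries without drug at both doses were A2626, A2689 and C2622. Those higher at both doses were A2702, A2679, A2678, A2680 and C2638, and the largest ratio among them was 0.30, at A2702 relative to DMSO. By the rates themselves, C2638 with AglA lay below DMSO at both doses and A2680 below no addition. The log2 ratios to DMSO had a standard deviation of 0.17 and 0.16 over the 11, against 0.11 and 0.13 over the 512 tested nucleotides other than C2764 and C2821. For the ratios to no addition the order was reversed, with 0.16 and 0.18 over the 11 against 0.21 and 0.21 over the 512. The ratio of largest size among the 11 was -0.36, at A2626 and 1.0 mM relative to no addition. Between the libraries without drug, the standard deviation was 0.19 over all tested nucleotides and 0.11 over the 12 of the window.

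With CHX the 11 other reactive bases moved little. Their log2 ratios to DMSO had medians of 0.01, 0.01 and -0.02 at 10, 50 and 1000 µM, and spanned -0.13 to 0.29, -0.42 to 0.29 and -0.29 to 0.36. After centring, C2638, A2678, A2679 and A2680 were higher than both libraries without drug at every dose, and the highest ratio among them was 0.34, at A2678 and 10 µM relative to no addition. This did not hold for the rates themselves. With CHX, C2638 (75.1% to 78.5%) lay below the 78.7% with DMSO at every dose, A2680 below both libraries without drug, and A2679 below no addition. A2678 lay below both at 10 µM and, by a small margin, at 1000 µM (2.392% against 2.395% with DMSO). C2622 was lower than both libraries at 50 and 1000 µM, by 0.33 at most, and level with no addition at 10 µM. Between the libraries without drug themselves, 0 of the 12 differed at least 2-fold (0.389% of all tested nucleotides did), and the largest difference was 0.26, at C2675, which was higher with DMSO.

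**Figure D5:**
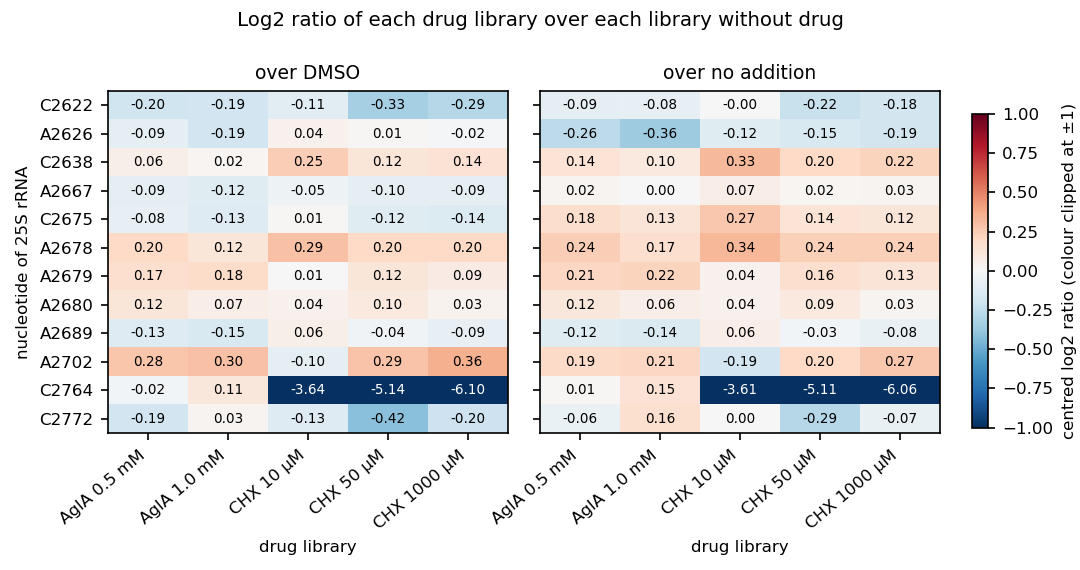
Log2 ratio of each of the 5 drug libraries over DMSO (left) and over no addition (right) for the 12 reactive nucleotides, after each library's median was subtracted; colours are clipped at 1. C2764 with CHX (-3.64 to -6.10 over DMSO) is the 1 nucleotide past a 2-fold difference, and the other cells lie between -0.42 and 0.36.

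At the molar dose shared by both drugs, 1.0 mM AglA and 1000 µM CHX, 1 of the 12 bases differed by at least 2-fold. C2764 was higher with AglA, at 13.3%, than with CHX, at 0.0633% (log2 difference 6.21; 0.195% of all tested nucleotides were higher with AglA by that rule, and 0.584% lower). The 0.195% is C2764 itself. The other 11 bases of the window differed by -0.17 to 0.24, with a standard deviation of 0.12. A2762 was lower with AglA (0.373%) than with CHX (0.528%), by 0.56 on the centred log2 scale used for all these differences. AglA and CHX are unrelated compounds and the other doses differ, so no further pair was compared.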

How the data were processed

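The data are 1 table of mutation rates, in which each of 8 columns matches the title of 1 library. The authors deposited a fraction per nucleotide, printed here as percentages. Per the labels' protocols, rRNA was fragmented, ligated to a linker and copied with the read-through enzyme TGIRT-III, full-length cDNA was kept, and PCR followed. Tools named per the submitters' processing notes are Bowtie2 and cutadapt, with the build sacCer3. Not given in the sources used here are their versions and roles, the filters and the depth. PCR copies are not recorded as removed.

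The tested nucleotides were the adenosines and cytidines that reached a mean of 0.5% over 7 DMS libraries, 514 in all and 12 in the window. Values were log2(rate + 0.001) minus the library median over these 514. A call needs a difference of 1 or more, in 1 direction, from both DMSO and no addition. No p-value was computed, as each condition has 1 library. Genome positions came from RefSeq (R64), with the strand from the locus tag, and folds from ViennaRNA 2.7.2. Other steps used Python 3.11.15, numpy 2.4.6, pandas 2.3.3, scipy 1.17.1 and matplotlib 3.10.9.

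The window, the lists and the rules were chosen with earlier results of these data known. The nucleotides named were those called, the 15 highest adenosines and cytidines, guanosines and uridines with signal, list members, up to 5 lower and 5 higher per drug, neighbours within 10 of a called one, and the window ends. The lists (CHX pocket, P loop and natural modifications) were written from memory, and all their bases matched the table, which does not show that a position belongs to the site. A2674, A2676, A2686, A2704, A2743, U2665, A2635 to A2637 and the hairpins were chosen after their values were seen. Alternatives were other constants, filters, references, folds and no centring.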

Additional observations from a re-analysis of the deposited data

Results flagged for a closer look

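A2762 lay outside the tested nucleotides and had a DMS signal that was higher with CHX than in the libraries without drug. Its rate at 1000 µM CHX was 0.528%, against 0.357% with DMSO, 0.293% with no addition and 0.0301% without DMS. Read depth is unknown, so the precision of rates this low cannot be given.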

How the results depend on the processing

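The count of window nucleotides called was 0 with each AglA dose, 1 (C2764) with each CHX dose, 1 between the drugs and 0 between DMSO and no addition under every alternative tried. They comprised 0.0001 or 0.01 as the constant, a filter at 2% or none, values not centred, rates less the rate without DMS, and a 1.5-fold rule, and for the drug calls also each library without drug alone. The size at C2764 depended on the constant. With 0.01 its log2 ratios to DMSO along the CHX doses were -2.79, -3.40 and -3.56, and with 0.0001 it was at -5.58 for 50 µM and -7.23 for 1000 µM. Without centring they were -3.96 at 10 µM and -6.30 at 1000 µM. After subtraction of the rate without DMS they were -3.86, -5.74 and -6.84. A2762 was higher than DMSO in all alternatives, added after the data were seen, but under the 0.5 bound with 0.01 added (0.33, 0.25 and 0.30) and without centring (0.34, 0.44 and 0.46). DMS-responsive bases numbered 18 at 5-fold, 11 at 20-fold and 13 against the DMSO library alone, in place of 12. Pairing was read for the 12 of the main rule and the other 83 adenosines and cytidines, and not for the counts by other folds or references. Of the 12, 75% were unpaired in the window folded alone, with 100 nucleotides added on each side, and by a pair probability under 0.5. Of the other 83, 47% were unpaired in the window folded alone and 48.2% by each of the other settings. No paired analysis was possible because each condition has 1 library. Unknown depth limits rates near the level without DMS.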
